A study of Mus musculus with 3 samples.

Results

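The angiopoietin-Tie system was described in the mouse lung at postnatal day 14 (P14) through 5 genes, taken by symbol from the 28692 genes counted: the ligands *Angpt1* and *Angpt2*, the receptors *Tek* (TIE2) and *Tie1*, and *Ptprb*, which encodes the phosphatase VE-PTP. Their transcripts were measured by single-cell RNA-Seq (scRNA-Seq) in 3 whole lungs of wild-type C57BL/6 pups kept in room air from day 1 to day 14 of life, numbered mouse 2, mouse 3, and mouse 4. All 3 libraries belong to that 1 condition, so the comparisons are between cell types and the mice are the replicates. Levels are given as the UMIs of a gene scaled to 1000000 UMIs of a cell type (CPM), where a unique molecular identifier (UMI) tags 1 captured transcript. Where 3 values are listed, they are those of mouse 2, mouse 3, and mouse 4 in that order, and means are given ± SD over the 3 mice.

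TIE2 is a receptor tyrosine kinase of endothelial cells (ECs), the cells that line blood and lymphatic vessels. ANGPT1, a ligand made largely by cells around vessels, activates TIE2 and favors quiescent, tight vessels, whereas ANGPT2 acts as a weak agonist or as an antagonist depending on context. TIE1 is a related receptor that modulates TIE2 signaling, and VE-PTP removes phosphate from TIE2. Mural cells are the pericytes of capillaries and the smooth muscle cells of larger vessels. The smooth muscle cells described here were not split into those of vessels and those of airways. All of them are counted among the mural cells below, so airway muscle may contribute to the mural values.

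On GRCm38 (GENCODE vM21), *Tek* lies on chromosome 4 from 94739289 to 94874976 on the plus strand, and *Tie1* on the same chromosome from 118471191 to 118490061 on the minus strand. *Ptprb* spans 116275523 to 116389535 on chromosome 10 (plus strand), *Angpt1* spans 42424723 to 42676977 on chromosome 15 (minus strand), and *Angpt2* spans 18690263 to 18741562 on chromosome 8 (minus strand). *Angpt2* lies within the protein-coding gene *Mcph1* of the opposite strand, the 5′ end of *Angpt1* overlaps the antisense gene *Gm17473*, and *Ptprb* contains *Gm47625* and the snoRNA *Gm26495* on its own strand. Whether counting used strand is not given in the sources used here, so reads of these overlapping genes may not be separable. The promoters of both receptors are shown, as the promoter set used held no entry for *Angpt1*, *Angpt2*, or *Ptprb*. Both are RefSeq windows (GRCm38.p6) from 250 bases before to 50 bases after the RefSeq start, 5′ to 3′ on the gene's strand. They lie at chr4:94739039-94739338 for *Tek* and chr4:118489800-118490099 for *Tie1*. The *Tie1* window begins at 118490099, close to the GENCODE start at 118490061, so most of it lies inside the gene as positioned above. Capitals mark, on either strand, the letters AGGAA, a core sequence known to be bound by ETS transcription factors. They also mark the letters AGATAA, known to be bound by GATA transcription factors.
Tek: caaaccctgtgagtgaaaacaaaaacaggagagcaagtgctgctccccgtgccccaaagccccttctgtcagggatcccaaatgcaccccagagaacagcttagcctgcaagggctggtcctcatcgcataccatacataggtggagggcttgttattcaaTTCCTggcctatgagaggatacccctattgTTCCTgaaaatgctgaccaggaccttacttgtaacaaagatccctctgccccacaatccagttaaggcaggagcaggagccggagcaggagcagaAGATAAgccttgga
Tie1: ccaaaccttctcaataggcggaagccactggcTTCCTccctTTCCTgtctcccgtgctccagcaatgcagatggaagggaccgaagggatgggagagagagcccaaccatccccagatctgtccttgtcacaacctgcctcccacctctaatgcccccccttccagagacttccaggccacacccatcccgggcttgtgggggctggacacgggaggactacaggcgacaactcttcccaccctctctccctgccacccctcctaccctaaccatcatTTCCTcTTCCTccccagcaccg
The *Tek* window held 2 matches to AGGAA and 1 to AGATAA, and the *Tie1* window held 4 matches to AGGAA and none to AGATAA. Neither window held TGTTTA, a forkhead motif. Of 32851 promoter windows of the same length, 66.7% held AGGAA, 11.2% held AGATAA, and 13.4% held TGTTTA on either strand, so a match to AGGAA is common.

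The libraries held 3034, 3135, and 3475 barcodes with 22476491 to 25192427 UMIs each, and 7642 of the 9644 cells were kept, those with 200 or more genes seen and no more than 20% of UMIs from mitochondrial genes. Pairs of libraries shared 2 to 5 barcodes. Cells were clustered without the 5 genes and named from marker genes. The types used here were 134 pericytes, 290 smooth muscle cells, 155 arterial ECs, 106 venous ECs, 449 *Aplnr*-type and 96 *Car4*-type capillary ECs, 17 lymphatic ECs, 807 myofibroblasts, 210 *Col13a1*-type fibroblasts, and 100 *Col14a1*-type fibroblasts. All 9 pericyte markers had UMIs in the pericytes, all 8 smooth muscle markers in the smooth muscle cells, and all 5 endothelial class markers in each EC type. These lists also served to name the types, and a UMI of each marker does not tell types apart. All 9 pericyte markers had UMIs in smooth muscle cells too, and all 5 endothelial class markers in pericytes. The pericyte markers summed to a median over mice of 21350 CPM in pericytes and 4039 CPM in smooth muscle cells. For the smooth muscle markers the medians were 1522 and 22625 CPM. The *Col14a1*-type cluster was led by *Dcn* but also by the cartilage genes *Col2a1*, *Col10a1*, and *Acan*. Doublets, droplets that hold more than 1 cell, were marked and kept, and made up 4 of the pericytes, 5 of the smooth muscle cells, and 6 of the 17 lymphatic ECs. In 4 clusters, 842 cells stayed unnamed and entered no comparison.

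The receptors and the phosphatase were endothelial, and the ligands were found mostly outside ECs. ECs were 12.0% ± 3.06 (SD, n = 3) of the cells and held 90.8% ± 2.06 of *Tek* UMIs, 92.2% ± 1.07 of *Tie1* UMIs, and 93.6% ± 1.26 of *Ptprb* UMIs. They held 3.68% ± 1.11 of *Angpt1* UMIs and 10.7% ± 3.86 of *Angpt2* UMIs. Mural cells, 5.59% ± 1.53 of the cells, held 37.5% ± 10.4 of *Angpt1* UMIs and 50.7% ± 4.30 of *Angpt2* UMIs. Fibroblasts, 14.6% ± 2.27 of the cells, held 53.6% ± 10.3 and 35.1% ± 0.645 of them. Fibroblasts contributed more *Angpt1* UMIs than mural cells in mice 3 and 4 and fewer in mouse 2. In all, 30167 *Ptprb*, 6901 *Tie1*, 6380 *Tek*, 1938 *Angpt1*, and 1544 *Angpt2* UMIs were counted in the kept cells, so the ligand values carry the larger counting error.

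**Figure D1:**
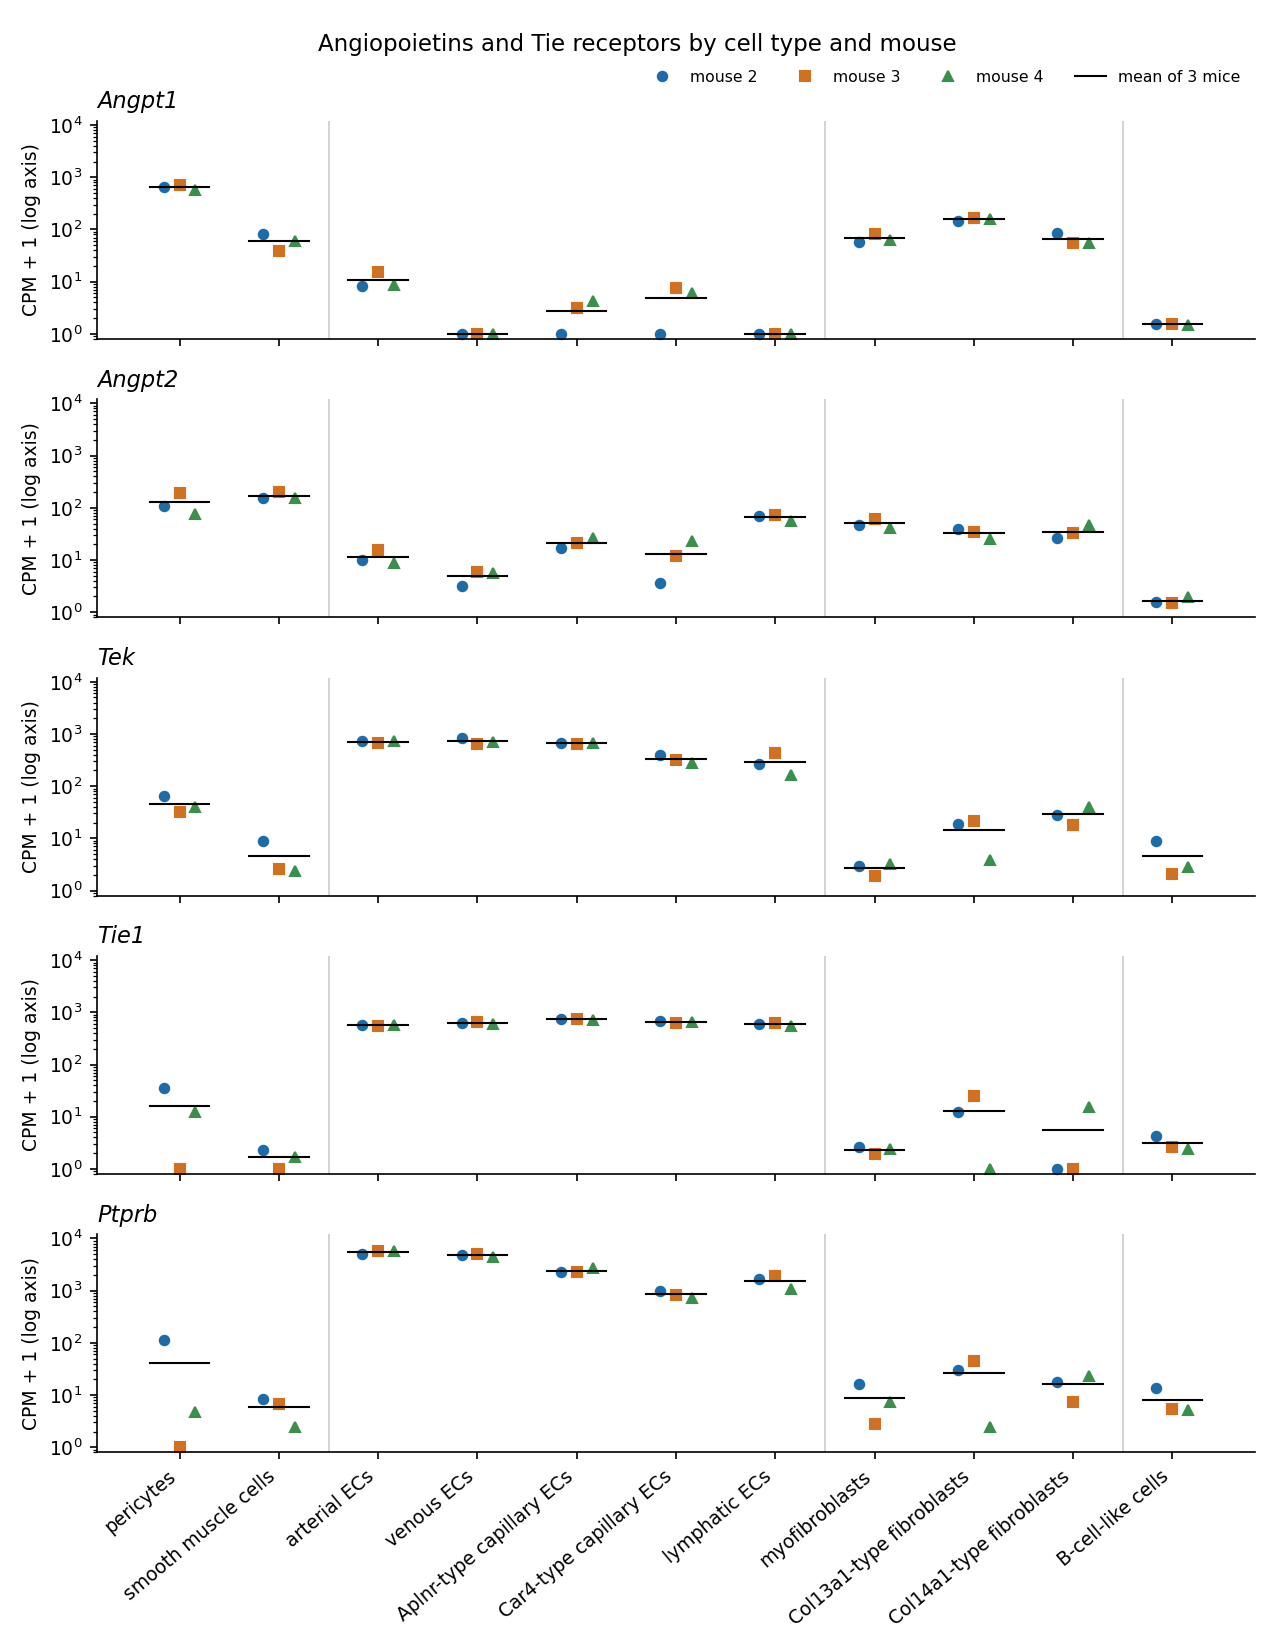
CPM + 1 of each gene on a log axis (y) in 11 cell types (x), with a point per mouse and a line at the mean of the 3 mice. *Angpt1* was highest in pericytes (mean 646 CPM), *Angpt2* in smooth muscle cells (169 CPM), and *Tek*, *Tie1*, and *Ptprb* in ECs, with B-cell-like cells as background.

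*Angpt1*, the activating ligand, was highest in pericytes, at 646, 719.6, and 574 CPM (mean 646 ± 72.8). *Col13a1*-type fibroblasts, which carry the alveolar fibroblast gene *Tcf21*, had 146, 167, and 159 CPM (158 ± 10.5). The values of these types did not overlap. Myofibroblasts (66.1 ± 12.0 CPM), *Col14a1*-type fibroblasts (63.8 ± 16.8 CPM), and smooth muscle cells (58.7 ± 22.1 CPM) followed, and their ranges overlapped. Among the myofibroblasts, the cluster led by *Pdgfra*, *Agt*, and *P2ry14* had 85.0, 95.9, and 85.9 CPM, above the 37.9, 60.3, and 39.7 CPM of the cluster led by *Aspn* and *Hhip* in 3 of 3 mice.

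An *Angpt1* UMI was found in 68.8% ± 5.86 of pericytes and 37.6% ± 6.18 of smooth muscle cells, at median depths of 6368 and 10971.5 UMIs per cell, and in 0.226% ± 0.0263 of B-cell-like cells at 3960 UMIs, a type that should lack it. With each cell of at least 1000 UMIs thinned to 1000 UMIs, the shares were 41.6%, 6.99%, and 0.0525%. Shallower cells were left out of every thinned share, here 30 of 134 pericytes, 0 of 290 smooth muscle cells, and 5 of 1783 B-cell-like cells. The full and thinned shares of pericytes thus rest on different cells. Over all cells, pericytes held the higher share at the lower median depth. Of the pericytes, 43 lay in a low-UMI cluster with a median of 775 UMIs. That cluster held 17 of the 492 pericyte UMIs of *Angpt1* (10, 1, and 6), and its level varied from 62.8 to 641 CPM. The main pericyte cluster had 646, 791, and 595 CPM.

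Outside the stroma, *Angpt1* was seen in platelet- or megakaryocyte-like cells at 379, 286, and 0 CPM. These values rest on 27 UMIs (24, 3, and 0) in 6 of 31 cells, whose median depth was 711 UMIs, too few to compare the mice. Basophil- or mast-like cells had 39.4, 0, and 82.7 CPM, on only 6 UMIs in 2 of 44 cells. NK-like cells had 12.6, 11.5, and 7.86 CPM on 12 UMIs, above the 0.516 ± 0.0487 CPM of B-cell-like cells in each mouse. AT1-like cells had no *Angpt1* UMI in 166 cells, which allows a share of cells with a UMI of up to 1.81% and sets no limit on cells that express the gene (such limits cover counting error only).

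*Angpt2*, the context-dependent ligand, was highest in smooth muscle cells, at 152, 201, and 154 CPM (169 ± 27.8). Pericytes had 109, 191, and 76.5 CPM (125 ± 58.8), lower than the smooth muscle cells of the same mouse in 3 of 3 mice, although the ranges overlapped. A UMI was found in 77.5% ± 2.75 of smooth muscle cells and 40.3% ± 16.4 of pericytes (15.9% and 10.5% when thinned), against 0.292% ± 0.0929 of B-cell-like cells (0.0622% when thinned). Lymphatic ECs had 68.9, 73.1, and 55.3 CPM, on 21 UMIs in 7 of 17 cells, and a mean of 42.9 CPM without the marked doublets. These values were above those of each other named EC type. In the same cells 4 of 8 smooth muscle markers had UMIs (*Cnn1*, *Des*, *Actg2*, and *Lmod1* were at 0), summing to 41.5, 336, and 687 CPM from the lowest to the highest mouse, where the other named EC types reached at most 231 CPM. Of 9 pericyte markers 6 had UMIs (*Cspg4*, *Lamc3*, and *Trpc6* were at 0), summing to 13.8, 17.2, and 921 CPM, where the other named EC types reached at most 144 CPM. The part of these markers in the result was not tested. Myofibroblasts had 46.0, 60.8, and 40.7 CPM, above the 37.4, 33.4, and 24.0 CPM of *Col13a1*-type fibroblasts without overlap. The *Col14a1*-type fibroblasts (33.8 ± 10.2 CPM) overlapped both.

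**Figure D2:**
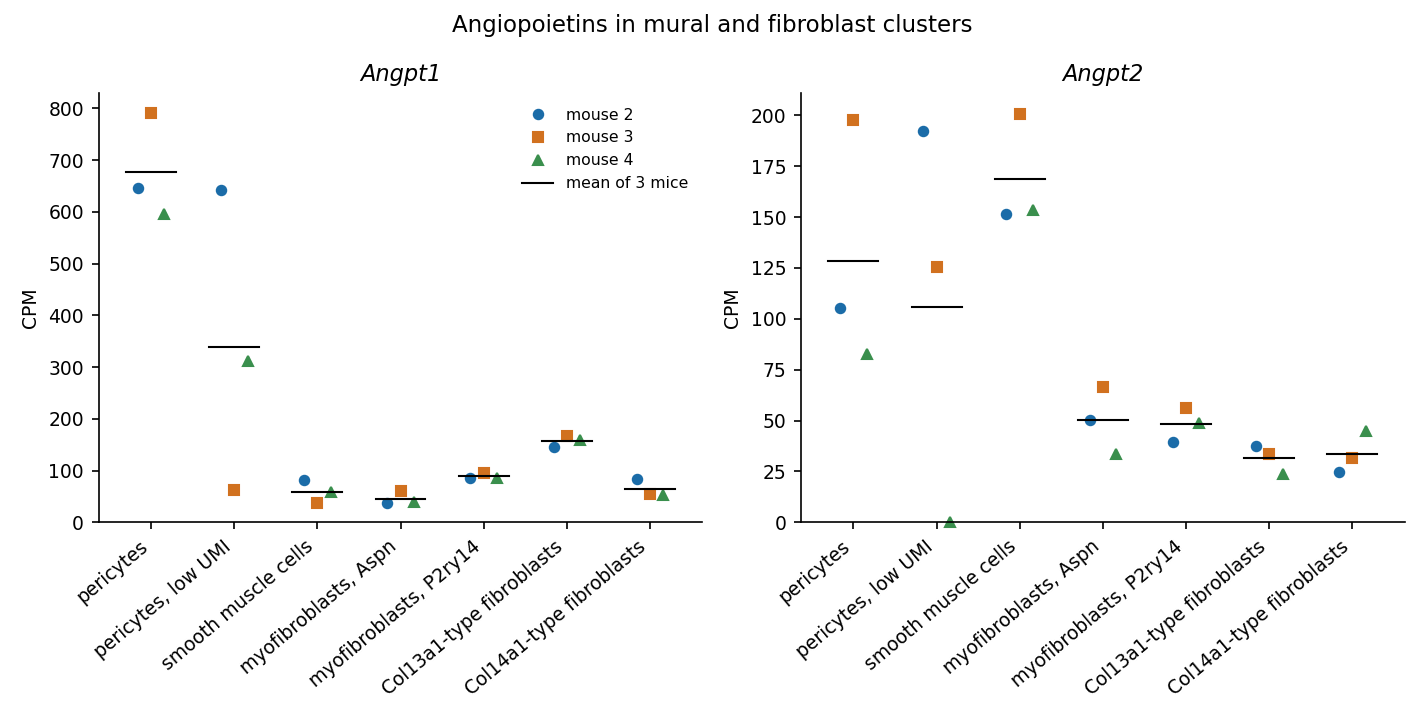
CPM of *Angpt1* and *Angpt2* on linear axes (y) in 7 mural and fibroblast clusters (x), with a point per mouse and a line at the mean. For *Angpt1* the main pericyte cluster lies at 595 to 791 CPM and smooth muscle cells at 36.9 to 81.2 CPM, while for *Angpt2* the ranges of pericytes and smooth muscle cells overlap.

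ECs and mural cells were compared on UMIs summed per mouse, in a fit across all genes (edgeR quasi-likelihood test with Benjamini-Hochberg adjustment). *Angpt1* was 5.04, 9.83, and 7.68 CPM in ECs and 188, 116, and 139 CPM in mural cells (log2 fold change -4.46 ± 0.30 SE, edgeR adjusted p = 1.15e-09). *Angpt2* was 14.2, 15.7, and 21.4 CPM in ECs and 144, 199.6, and 142 CPM in mural cells (log2 fold change -3.34 ± 0.19, edgeR adjusted p = 1.54e-10). Both ligands were thus lower in ECs in every mouse. *Tek* was 637, 565, and 603 CPM in ECs and 18.5, 4.97, and 7.17 CPM in mural cells (log2 fold change 5.68 ± 0.34, edgeR adjusted p = 2.56e-10). *Tie1* was 682, 656, and 654 CPM against 7.61, 0, and 2.39 CPM (log2 fold change 7.37 ± 0.42, edgeR adjusted p = 1.82e-10). *Ptprb* was 2825, 3092, and 2973 CPM against 27.7, 4.97, and 1.79 CPM (log2 fold change 7.80 ± 0.69, edgeR adjusted p = 4.12e-08). The groups overlapped for none of the 5 genes. The share of all tested genes without overlap was not counted, so the lack of overlap is not read as a trait of these genes. Of the 5, 3 were higher and 2 lower in ECs, in a comparison where 50.7% of 13918 tested genes were called, 24.4% higher and 26.3% lower.

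Much of the *Angpt1* count of ECs lay in few cells. Of 70 UMIs, 42 were in an unnamed EC sub-cluster of 10 cells led by the stromal genes *Mfap4*, *Col1a2*, and *Col1a1*, with a median of 36092.5 UMIs per cell, and 8 of these 10 cells were marked doublets. Without marked doublets, 32 UMIs were left in ECs and the log2 fold change against mural cells was -5.47.

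Against fibroblasts, ECs again had less of both ligands and more of the other 3 genes, and all 5 passed where 54.1% of tested genes were called. The log2 fold change was -3.52 ± 0.30 for *Angpt1* (edgeR adjusted p = 2.10e-08) and -4.55 without marked doublets. It was -1.37 ± 0.20 for *Angpt2* (edgeR adjusted p = 1.58e-05), 6.41 ± 0.31 for *Tek*, 7.44 ± 0.36 for *Tie1*, and 7.85 ± 0.65 for *Ptprb*. Summed mural cells had more of both ligands than summed fibroblasts, in a comparison where 27.9% of tested genes were called. For *Angpt1* the levels were 148 ± 37.0 and 82.0 ± 13.1 CPM (log2 fold change 0.94 ± 0.21, edgeR adjusted p = 0.00233), and for *Angpt2* 162 ± 32.9 and 43.3 ± 5.42 CPM (log2 fold change 1.98 ± 0.16, edgeR adjusted p = 6.22e-08). The mural *Angpt1* sum joined pericytes at 646 ± 72.8 CPM with the more numerous smooth muscle cells at 58.7 ± 22.1 CPM, a mean below that of the fibroblasts. *Tek*, *Tie1*, and *Ptprb* did not pass there, with 95% intervals of the log2 fold change from -0.34 to 1.78, from -1.62 to 1.76, and from -1.45 to 1.55. Their means in mural cells and fibroblasts were 10.2 and 6.93 CPM for *Tek*, 3.33 and 3.79 for *Tie1*, and 11.5 and 12.4 for *Ptprb*. Of the 61 mural *Ptprb* UMIs, 39 lay in 1 marked doublet. The count filter of this fit takes in ECs, so neither a difference nor a likeness is concluded for these genes.

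**Figure D3:**
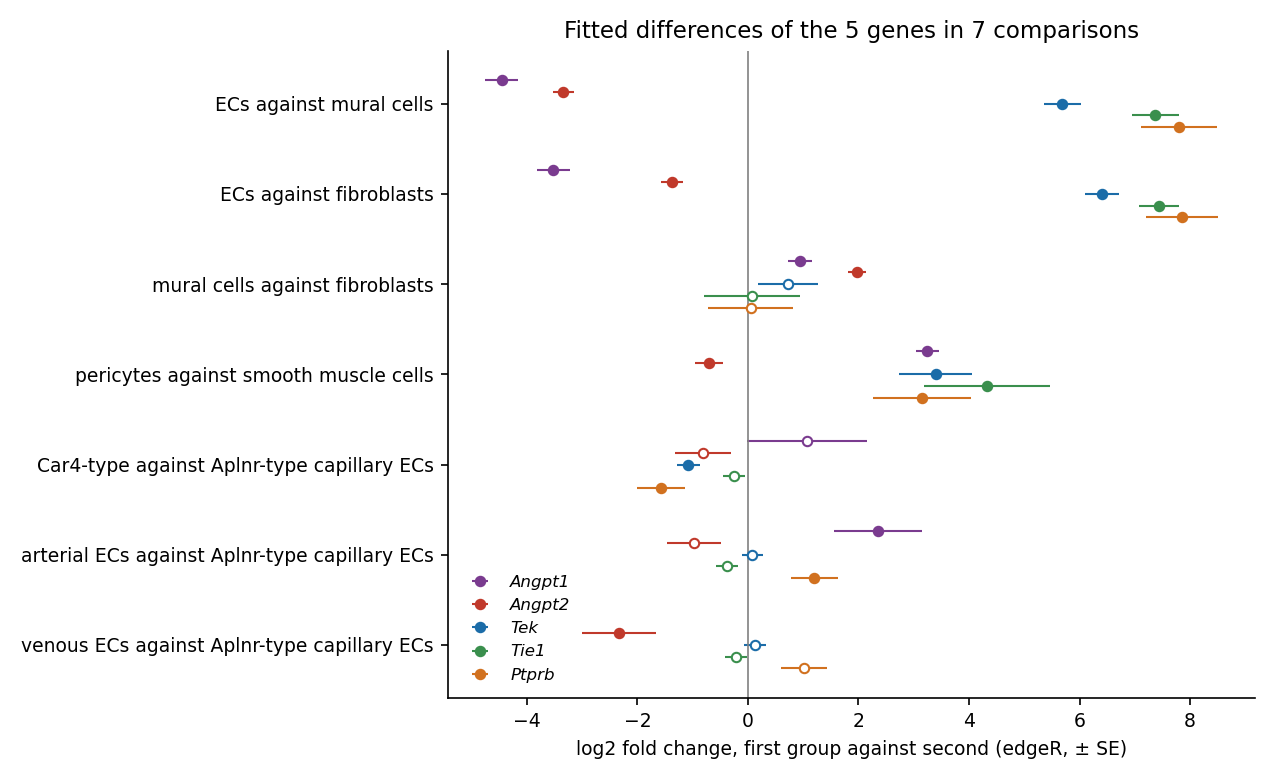
Fitted log2 fold changes (x, ± SE) of the 5 genes in 7 comparisons, first group against second, from edgeR. Filled points have an adjusted p below 0.05, and *Angpt1* in venous ECs is not drawn because no UMI was counted there. No difference is concluded from filled points of the ligands between EC types, or of *Tie1* between pericytes and smooth muscle cells. The *Ptprb* level of pericytes rests largely on 1 marked doublet. In ECs against mural cells the ligands lie at -4.46 and -3.34 and the other genes at 5.68, 7.37, and 7.80.

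Within the mural cells, *Angpt1* separated the types. Its 646, 719.6, and 574 CPM in pericytes stood against 81.2, 36.9, and 58.1 CPM in smooth muscle cells (log2 fold change 3.24 ± 0.21, edgeR adjusted p = 1.26e-17), where 25.6% of 12395 tested genes were called. *Angpt2* was lower in pericytes (log2 fold change -0.71 ± 0.25, edgeR adjusted p = 0.0311). That call was lost in 6 of 13 alternatives, among them the fits without mouse 2 (-0.68, adjusted p = 0.174) and without mouse 4 (-0.50, adjusted p = 0.286). In single cells, 47 pericytes held UMIs of both ligands, 47 held *Angpt1* alone, and 4 held *Angpt2* alone. Among smooth muscle cells 83 held both, 28 held *Angpt1* alone, and 141 held *Angpt2* alone.

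*Tek* was also seen in pericytes, at 63.2, 30.8, and 38.3 CPM on 37 UMIs in 23 of 134 cells. Smooth muscle cells had 8.05, 1.61, and 1.42 CPM, on 16 UMIs in 16 of 290 cells. The groups did not overlap (log2 fold change 3.40 ± 0.66, edgeR adjusted p = 4.06e-05), and the call held in the 13 alternatives run. The share of pericytes with a *Tek* UMI was 16.3% ± 4.36 (3.62% when thinned), against 1.09% ± 0.821 of B-cell-like cells (0.296% when thinned). All 5 endothelial class markers had UMIs in pericytes, summing to 105, 126, and 301 CPM from the lowest to the highest mouse, against 23.4 to 35.5 CPM in smooth muscle cells and 9557 to 9957 CPM in ECs. A UMI of such a marker was seen in 5 of the 23 pericytes with *Tek* (21.7%) and in 20 of the 111 without it (18.0%). Of the 23, 1 was a marked doublet of mouse 2, and it held 7 of the 37 *Tek* UMIs. Pericytes with *Tek* held on average 4.0 UMIs of these markers and those without it 0.568, and the part of endothelial RNA in the *Tek* level was not tested.

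*Tie1* and *Ptprb* in pericytes rested largely on 1 mouse. *Ptprb* was 115, 0, and 3.83 CPM, with 39 of its 41 UMIs in 1 cell of mouse 2 that was a marked doublet. *Tie1* was 34.5, 0, and 11.5 CPM, with 15 UMIs in 4 cells, 10 of them in 1 cell, and all 4 cells held endothelial markers. Both passed against smooth muscle cells (log2 fold change 3.15 ± 0.89, edgeR adjusted p = 0.00495, for *Ptprb*, and 4.32 ± 1.14, adjusted p = 0.00263, for *Tie1*). Without marked doublets the values were -0.96 (edgeR adjusted p = 0.730) and 2.85 (adjusted p = 0.0984), and without mouse 2 they were -0.65 (adjusted p = 0.977) and 3.68 (adjusted p = 0.362). *Tie1* passed the count filter in the fit over all types, which takes in ECs. It had no result in a fit of mural and fibroblast types alone, so no difference is concluded from its p-value. For *Tie1*, 15 UMIs stood against 3, a ratio of levels of 26.9 with an exact binomial 95% interval from 7.60 to 145. That interval pools cells and mice and takes each UMI as independent. It covers counting error only and leaves out the spread between cells and between mice.

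Among EC types the summed level of *Ptprb* differed, with arterial and venous ECs above both capillary types in every mouse. It was 5149, 5825, and 5681 CPM in arterial ECs (5552 ± 356) and 4849, 5072, and 4469.9 CPM in venous ECs (4797 ± 304). *Aplnr*-type capillary ECs had 2232, 2283, and 2726 CPM (2414 ± 271), and *Car4*-type capillary ECs, also known as aerocytes, had 992, 827, and 732 CPM (850.2 ± 131). Lymphatic ECs lay between the capillary types, at 1663, 1944, and 1079 CPM. The ranges of neighbors in this order did not overlap. A *Ptprb* UMI was seen in 100% of arterial and of venous ECs, 99.5% ± 0.550 of *Aplnr*-type ECs, and 44.6% ± 9.68 of *Car4*-type ECs, against 1.94% ± 0.773 of B-cell-like cells. When thinned the shares were 98.7%, 97.3%, 86.3%, 24.7%, and 0.554%. *Car4*-type cells had the higher median depth of the capillary types (9163.5 against 7859 UMIs). All 1050 *Ptprb* UMIs of *Car4*-type ECs lay in 42 of 96 cells. The level of this type thus joins cells with and without a UMI, and is not a level shared by its cells.

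In the fit over all named types, *Ptprb* was lower in *Car4*-type than in *Aplnr*-type ECs (log2 fold change -1.57 ± 0.43, edgeR adjusted p = 0.0119), where 8.42% of tested genes were called. It was higher in arterial than in *Aplnr*-type ECs (1.203 ± 0.42, edgeR adjusted p = 0.0391), where 15.9% were called. The venous difference did not pass (1.01 ± 0.42, edgeR adjusted p = 0.104), in a comparison where 14.4% were called, but did with the mouse as a block (1.02, adjusted p = 0.0315). This fit shares 1 estimate of spread over all types. A fit of the 4 EC types alone, added after seeing the data, gave -1.48 ± 0.11 for *Car4*-type (edgeR adjusted p = 7.68e-11), 1.30 ± 0.10 for arterial (adjusted p = 1.34e-10), and 1.11 ± 0.10 for venous ECs (adjusted p = 3.02e-09). With DESeq2 over all types the *Car4*-type and arterial calls were lost (adjusted p = 0.484 and 0.489), and the arterial call was lost without mouse 2 (1.23, edgeR adjusted p = 0.0786) or mouse 3 (1.13, adjusted p = 0.0878). AT2 markers summed to 266, 450.1, and 4940 CPM in arterial ECs from the lowest to the highest mouse, and their part in the result was not tested.

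*Tek* was lower in *Car4*-type ECs than in the other EC types of blood vessels. It was 718, 678, and 719 CPM in arterial ECs, 820.3, 649.5, and 689 CPM in venous ECs, and 678, 643, and 682 CPM in *Aplnr*-type ECs, ranges that overlapped. *Car4*-type ECs had 400.3, 311, and 282 CPM, below all of these (log2 fold change against *Aplnr*-type ECs -1.08 ± 0.21, edgeR adjusted p = 0.000231). The fit of EC types alone gave -0.99 ± 0.13 (edgeR adjusted p = 2.41e-06), and DESeq2 over all types -0.97 (adjusted p = 0.441). A *Tek* UMI was found in 55.4% ± 13.9 of *Car4*-type and 97.6% ± 1.30 of *Aplnr*-type ECs (15.5% and 48.7% when thinned). Lymphatic ECs had 267, 438, and 159 CPM, a range that overlapped that of *Car4*-type ECs. Arterial and venous ECs did not pass against *Aplnr*-type ECs, with 95% intervals of the log2 fold change from -0.30 to 0.46 and from -0.26 to 0.51.

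*Tie1* varied less among EC types. It was 754, 754, and 719 CPM in *Aplnr*-type ECs and 669, 630.2, and 648 CPM in *Car4*-type ECs. Venous ECs had 631, 664, and 604 CPM, lymphatic ECs 603, 614, and 546 CPM, and arterial ECs 579.6, 553, and 577 CPM. The *Aplnr*-type values were above those of each other EC type, and the ranges of *Car4*-type and venous ECs overlapped. The log2 differences from *Aplnr*-type ECs did not pass (-0.25 ± 0.20 for *Car4*-type, -0.38 ± 0.20 for arterial, and -0.21 ± 0.20 for venous ECs, with edgeR adjusted p = 0.586, 0.237, and 0.603). In the fit of EC types alone the arterial difference was -0.28 ± 0.10 (edgeR adjusted p = 0.0455). *Car4*-type ECs held a *Tie1* UMI in 98.8% ± 2.14 of cells and *Aplnr*-type ECs in 98.7% ± 0.841 (45.7% and 52.2% when thinned), against 0.677% ± 0.0790 of B-cell-like cells (0.148% when thinned).

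**Figure D4:**
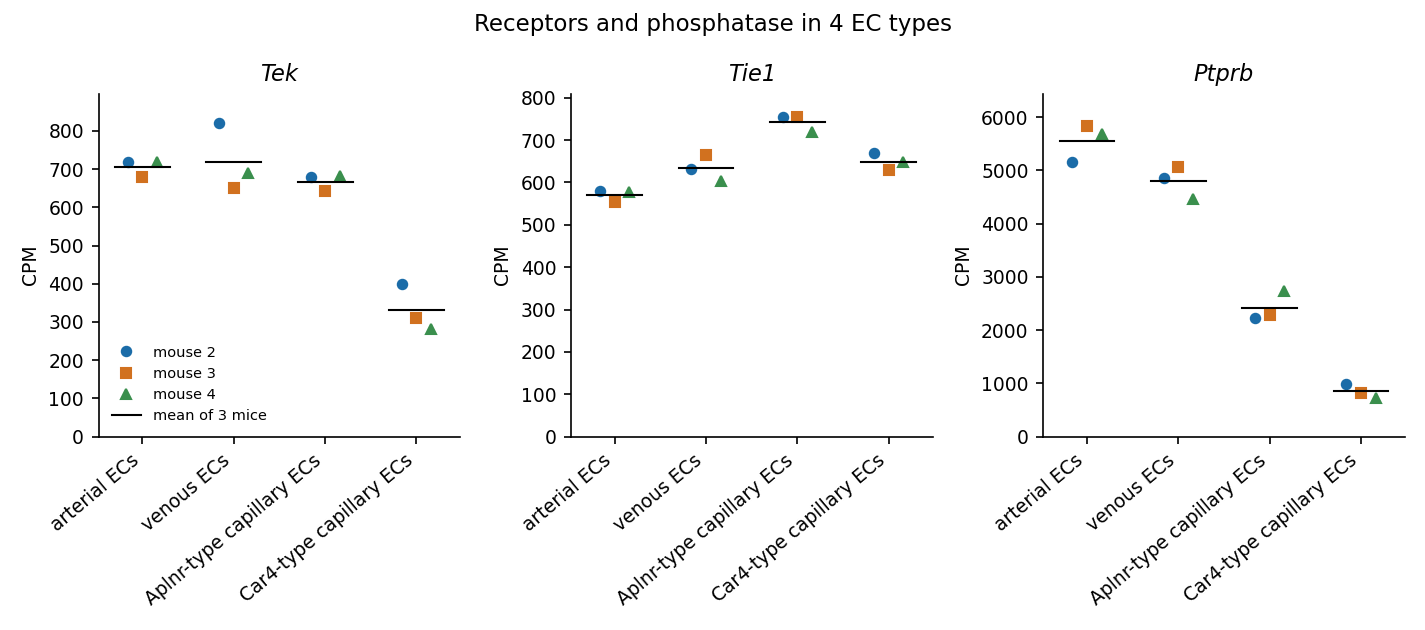
CPM (y, linear axes) of *Tek*, *Tie1*, and *Ptprb* in 4 EC types (x), with a point per mouse and a line at the mean of 3 mice. The mean of *Ptprb* was 5552 CPM in arterial and 850.2 CPM in *Car4*-type ECs, that of *Tek* was 331 CPM in *Car4*-type ECs and 668 to 719.7 CPM in the others, and that of *Tie1* lay between 570.0 and 742 CPM.

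In single ECs, *Tek* and *Tie1* UMIs co-occurred in 433 of 449 *Aplnr*-type ECs (96.4%) and in 52 of 96 *Car4*-type ECs (54.2%), close to the 96.2% and 53.6% that their separate shares would give. All 52 *Car4*-type cells with *Tek* held *Tie1*, and 43 held *Tie1* without *Tek*. Nearly all cells of both types held *Tie1*, so its joint share with *Tek* was bound to lie near the *Tek* share. *Tek* and *Ptprb* co-occurred in 35 *Car4*-type ECs (36.5%), where their separate shares would give 23.7%, and 37 cells had neither. Cells of 1 mouse are not replicates, so no test was run.

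The ligands in ECs were low. Both passed the count filter of the fit over all named types, which takes in mural cells and fibroblasts. Neither had a result in the fit of EC types alone, so no difference between EC types is concluded from the ligand p-values. *Angpt2* was 15.9, 19.8, and 24.96 CPM in *Aplnr*-type ECs and 2.22, 4.87, and 4.75 CPM in venous ECs, on 5 UMIs in 106 cells (log2 fold change -2.33 ± 0.68, edgeR adjusted p = 0.0117). The ranges did not overlap, but the difference did not pass without mouse 2 (-2.19, adjusted p = 0.0826) or mouse 4 (-2.22, adjusted p = 0.0900). Arterial ECs had 9.08, 14.3, and 7.69 CPM and *Car4*-type ECs 2.58, 11.2, and 22.3 CPM, and neither passed against *Aplnr*-type ECs (-0.98 ± 0.49, edgeR adjusted p = 0.199, and -0.81 ± 0.51, adjusted p = 0.428). Within the *Aplnr*-type ECs, *Angpt2* was 19.2, 29.0, and 36.6 CPM in the sub-cluster led by *Cxcr4*, *Wif1*, and the cell cycle gene *Cenpf*. It was 13.5, 7.36, and 18.8 CPM in the sub-cluster led by *Cxcl10* and *Sema3c*, the lower of the pair in 3 of 3 mice, on 54 and 39 UMIs.

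*Angpt1* in arterial ECs was 7.27, 14.3, and 7.69 CPM, and all 15 UMIs lay in the sub-cluster led by *Cytl1*, *Sfrp1*, and *Mgp*, where 11 of 59 cells held one and the level was 20.5, 28.0, and 14.3 CPM. *Aplnr*-type ECs had 0, 2.08, and 3.19 CPM on 8 UMIs (log2 fold change of arterial ECs 2.35 ± 0.80, edgeR adjusted p = 0.0340). That p-value is not taken as a call, as *Angpt1* had no result in the fit of EC types alone. The difference did not pass without mouse 2 (1.93, adjusted p = 0.135) or mouse 3 (2.07, adjusted p = 0.156). In arterial ECs, 9 of 9 pericyte markers summed to 55.3 to 69.3 CPM and 7 of 8 smooth muscle markers to 19.99 to 50.02 CPM, with *Myh11* at 0, and their part in the result was not tested. *Car4*-type ECs had 0, 6.70, and 4.95 CPM on 5 UMIs and did not pass against *Aplnr*-type ECs (1.07 ± 1.08, edgeR adjusted p = 0.713). Venous ECs had no *Angpt1* UMI in 106 cells, which allows a share of cells with a UMI of up to 2.83% and sets no limit on cells that express the gene. As 3 UMIs would be 2.34 CPM there, a difference from *Aplnr*-type ECs was not detectable at this depth.

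**Figure D5:**
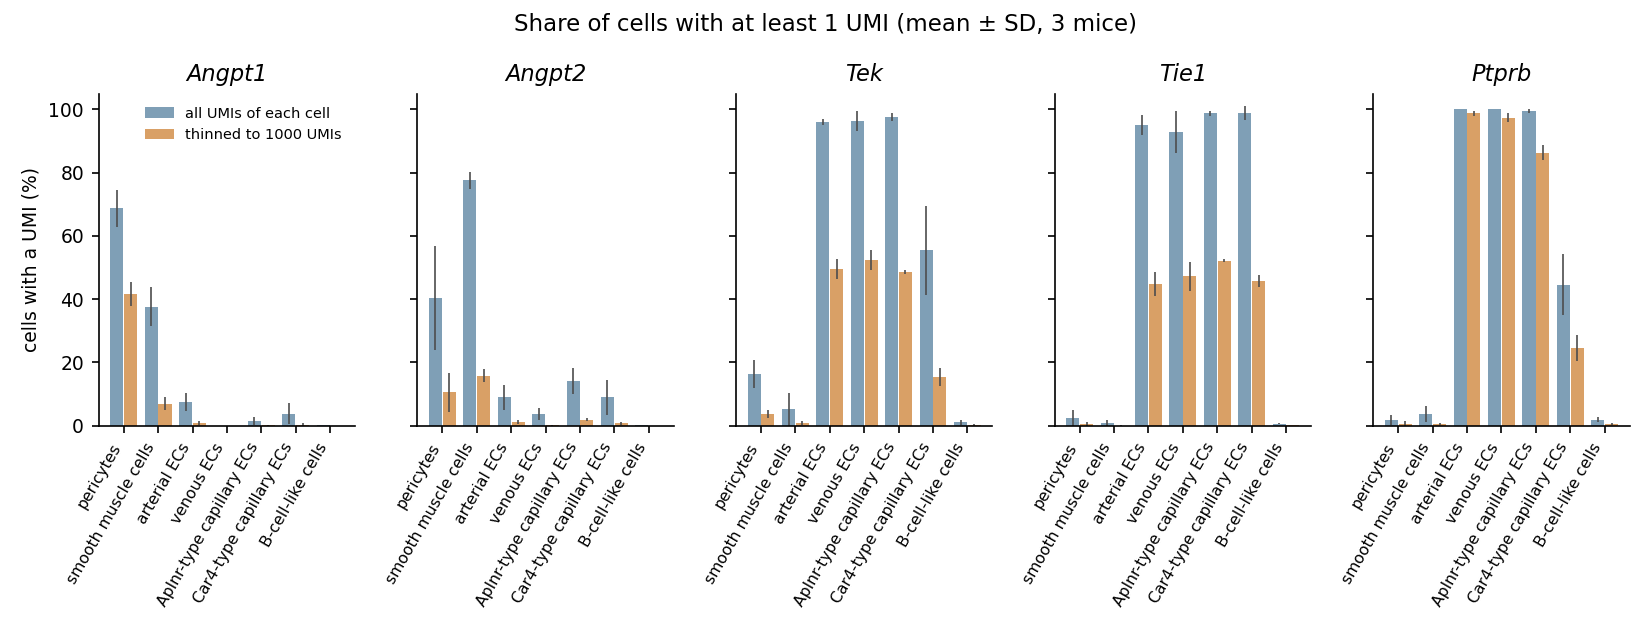
Share of cells with at least 1 UMI (y, percent, mean ± SD of 3 mice) for each gene by cell type (x). Bars show all UMIs of a cell, and each cell of at least 1000 UMIs thinned to 1000 UMIs, with shallower cells left out. *Angpt1* was found in 68.8% of pericytes and 37.6% of smooth muscle cells, *Angpt2* in 40.3% and 77.5%, and *Ptprb* in 99.5% of *Aplnr*-type and 44.6% of *Car4*-type ECs.

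In fibroblasts, *Tek* was seen in 27 of 100 *Col14a1*-type cells, at 27.0, 17.3, and 39.3 CPM on 38 UMIs. These values were above the 7.78, 1.06, and 1.85 CPM of B-cell-like cells in each mouse. *Tie1* was found in 1 of these *Col14a1*-type cells, with 5 UMIs. All 5 endothelial class markers had UMIs there, summing to 159 to 295 CPM, and their part in the *Tek* level was not tested.

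Other genes of the pathway, a list of 26 ligand, adaptor, kinase, and target genes, lay on both sides. Against mural cells 10 of 26 were higher in ECs, 10 were lower, and 6 did not pass, where 24.4% of all tested genes were higher and 26.3% lower, with a median log2 fold change of -0.06 against 0.01 over all genes tested. *Nos3*, the endothelial nitric oxide synthase, was 124 ± 13.6 CPM in ECs and 1.90 ± 1.65 CPM in mural cells (log2 fold change 5.78 ± 0.34). *Pik3cb*, a catalytic subunit of phosphoinositide 3-kinase, was 39.8 ± 4.25 and 2.56 ± 2.49 CPM (log2 fold change 3.89 ± 0.36). The integrin subunit gene *Itga5* and the kinase gene *Mapk3* were higher too, by 2.18 ± 0.12 and 1.82 ± 0.08 on the log2 scale. Among the genes lower in ECs, the ligand gene *Angpt4* had 39 UMIs in mural cells, all in smooth muscle cells, and none in ECs. With 3 UMIs taken as the limit over all ECs, the ratio of pooled levels was 25.3. That ratio takes the mural count as exact, while the mural level was 6.52, 13.5, and 4.78 CPM. *Svep1*, which encodes an extracellular ligand of TIE1, was 1.77 ± 1.09 CPM in ECs and 20.1 ± 5.07 CPM in mural cells (log2 fold change -3.61 ± 0.39). The log2 fold change was -1.60 ± 0.17 for *Pik3r2* and -1.53 ± 0.12 for *Akt2*. The largest edgeR adjusted p of these 8 genes was 2.14e-05. Against fibroblasts 12 of 26 were higher and 10 lower in ECs, where 54.1% of all tested genes were called. Between mural cells and fibroblasts 5 were higher and 6 lower in mural cells, where 27.9% of all tested genes were called.

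The pathway genes that passed between EC types are named here after their values were seen. Their calls come from the fit over all named types, whose count filter takes in every type. The fits of EC types alone and of mural and fibroblast types alone were read for the 5 members only. In *Car4*-type against *Aplnr*-type ECs, 2 of 25 were higher, *Grb14* (log2 fold change 1.504) and *Pik3cb* (1.15), and 3 were lower, *Itga5* (-1.49), *Nos3* (-1.28), and *Foxo1* (-1.23), a transcription factor inhibited by AKT, where 8.42% of all tested genes were called. *Foxo1* and *Nos3* were higher than in *Aplnr*-type ECs in arterial ECs (1.19 and 1.54) and in venous ECs (1.08 and 1.37). These 3 comparisons share the *Aplnr*-type sums. In all, 3 of 25 were higher and 4 lower in arterial ECs (15.9% of all tested genes called), and 4 were higher and 5 lower in venous ECs (14.4% called). In pericytes against smooth muscle cells 8 of 25 were higher, among them *Svep1* (5.07) and *Pik3r1* (2.62), and 3 were lower, *Grb14* (-1.93), *Tnip2* (-1.95), and *Foxo1* (-0.86), where 10.99% of all tested genes were higher and 14.6% lower.

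Across 21 named cell types, the mean log2(CPM + 10) values of the 3 endothelial genes varied together (Pearson r = 0.96 for *Tek* and *Tie1*, 0.97 for *Tek* and *Ptprb*, and 0.98 for *Tie1* and *Ptprb*), and those of the ligands less so (r = 0.63). Among 12394 other genes, those most like *Tek* were *Clec14a* (r = 0.99), *Fgd5* (0.98), and *2610305D13Rik* (0.98), and those most like *Tie1* were *Arhgef15*, *Egfl7*, and *Stmn2* (each 0.99). For *Ptprb* they were *Lyve1* (0.99), *Mmrn2* (0.99), and *Plvap* (0.98). *Egfl7*, *Lyve1*, and *Plvap* are among the markers used to name the types. *Angpt1* was most like *Trpc1* (0.92), *Gucy1b3* (0.90), and *Bcas3os1* (0.89), and *Angpt2* most like *Mir143hg* (0.97), *B4galt2* (0.95), and *Hoxb3os* (0.94). Only the arterial, venous, *Aplnr*-type, and *Car4*-type ECs among these types were endothelial. High r values of endothelial genes thus mainly set ECs apart from other cells. Among those EC types, arterial ECs had the highest mean of *Ptprb* (5552 CPM) and the lowest of *Tie1* (570.0 CPM). The points share libraries and depth, so these correlations are a description.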

How the data were processed

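The authors deposited 1 matrix of UMI counts per mouse (raw, not normalized), made from 10x Genomics 3′ libraries. Cell Ranger 3.0.2 and the mm10 build are named in the submitters' processing notes. The series record gives 5677 cells, against 9644 barcodes in the files, 7642 after the filter used here (at least 200 genes, at most 20% mitochondrial UMIs), and 5267 after a stricter one (at least 500 genes, at most 10%). The members and gene lists were chosen with earlier results of these data known.

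Cells were clustered with Seurat 5.3.0 and sctransform 0.4.2 (3000 variable genes less the members and the pathway list, 30 principal components, resolution 0.8; ECs again with 20 components) and clusters were named from marker lists. Doublets were scored with Scrublet in scanpy 1.11.5 and the top 0.8% per 1000 cells marked (201 of the kept cells), since the automatic threshold marked 25. Counts were summed per mouse and cell type and tested with edgeR 4.0.16 (TMM, filterByExpr, quasi-likelihood test, Benjamini-Hochberg adjustment, threshold 0.05) in R 4.3.3. One fit held 5 cell groups (13918 genes) and another all named types with at least 10 cells in a mouse (12395 genes), which left out lymphatic ECs. All 5 members passed the count filter in both, which is applied over all groups or types of a fit. In fits of related types alone, the ligands had no result among EC types. *Tie1* had none among mural and fibroblast types. The test recovered known changes in simulated counts. These had the same mean profile in every group apart from the changed genes, and the same spread for every gene. That setting is simpler than these data, so it does not check the calls made here.

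The sums of a mouse share their animal. The correlation of their deviations from the group means was -0.0203 to 0.234 over 30 pairs (median 0.0723) and -0.142 to 0.440 over 513 pairs of types (median 0.0698), and the mouse as a block was an alternative. Other alternatives were the stricter filter, doublets left out, members kept among the variable genes, resolution 1.2, DESeq2 1.42.0, no TMM, no count filter, each mouse left out, and, added after seeing the data, the low-UMI pericyte cluster left out and a fit of related types alone. Named genes were the 5 members, the pathway genes with the 4 largest called changes in each direction in ECs against mural cells, the 3 genes most correlated with each member, and markers and leading genes of clusters.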

Additional observations from a re-analysis of the deposited data

Results flagged for a closer look

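UMIs of the 5 genes also lay in data that entered no comparison. Barcodes removed by the filters held 39 *Angpt1*, 17 *Angpt2*, 83 *Tek*, 102 *Tie1*, and 401 *Ptprb* UMIs. The 4 unnamed clusters held 26 *Angpt1*, 19 *Angpt2*, 336 *Tek*, 367 *Tie1*, and 1392 *Ptprb* UMIs. Of these, a low-UMI cluster of 502 cells led by *Hpgd*, *Sox7*, and *Epas1* held 358 *Ptprb*, 73 *Tek*, and 63 *Tie1* UMIs, and a dividing cluster of 147 cells led by *Top2a* and *Mki67* held 1029 *Ptprb*, 262 *Tek*, and 300.0 *Tie1* UMIs. Groups of 3 mice were not tested for outlying samples.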

How the results depend on the processing

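For *Tie1* and *Ptprb* in mural cells against fibroblasts, where neither passed, the log2 fold change turned negative with the stricter cell filter (-2.29 and -1.36), with DESeq2 (-0.0720 and -0.0426), and with no TMM (-0.00633 and -0.0232), and for *Ptprb* without doublets (-0.29). With 1 mouse left out it ranged from -0.0075 to 1.14 for *Tek*, -1.52 to 1.08 for *Tie1*, and -1.47 to 0.38 for *Ptprb*. In pericytes against smooth muscle cells, the *Angpt2* call was lost with the stricter filter (-0.63), members among the variable genes (-0.65), DESeq2 (-0.54), and no TMM (-0.52), and ranged from -0.82 to -0.50 with 1 mouse left out. *Tie1* and *Ptprb* there were -2.75 and -1.27 with the stricter filter and 2.85 and -0.96 without doublets, and ranged from 3.68 to 4.60 and from -0.65 to 3.70 with 1 mouse left out. In arterial against *Aplnr*-type ECs, *Angpt1* did not pass with the stricter filter (2.19) or members among the variable genes (2.32; 1.93 to 3.57 with 1 mouse left out), *Ptprb* did not with DESeq2 (1.31; 1.13 to 1.30), and *Tie1* passed with no count filter (-0.42) and in the fit of EC types alone (-0.28). In *Car4*-type against *Aplnr*-type ECs, *Tek* (-0.97) and *Ptprb* (-1.46) did not pass with DESeq2. In venous against *Aplnr*-type ECs, *Ptprb* passed with the stricter filter (1.03), without doublets (1.05), with no count filter (0.98), with the replicate block (1.02), and in the fit of EC types alone (1.11; 0.95 to 1.197 with 1 mouse left out), and *Angpt2* ranged from -2.50 to -2.19. The replicate block changed no other call. The cause of these shifts was not tested. With 1 mouse left out, 477 to 736 genes were called in *Car4*-type (1044 with all mice), 1177 to 1610.0 in arterial (1977), and 1059 to 1472 in venous ECs (1787) against *Aplnr*-type ECs, each fewest without mouse 4. Of the log2 fold changes under other settings, 301 kept direction and side of the threshold, 10 changed direction, 10 lost the call, and 7 gained it. With 1 mouse left out, 90 kept both, 5 changed direction, 9 lost the call, and 1 gained it. Ligand counts in ECs (5 to 16 *Angpt2* UMIs in arterial, venous, and *Car4*-type cells) limit what these comparisons can show.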
